A study of Homo sapiens with 6 samples.

Results

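The cytosolic ribosomal protein genes were examined in A549 cells, a human lung adenocarcinoma line, that overexpressed IL17D, a cytokine of the interleukin 17 family, or carried the empty vector. Members were the protein coding genes of the count table whose names start with RPL or RPS followed by a number, P or A, without the RPS6K kinases, and 91 of 58735 genes met this rule, 55 of the large subunit and 36 of the small subunit. The study set out to learn what IL17D does to lung cancer cells. RNA was sequenced from 3 libraries of IL17D-expressing cells (the IL17D group) and 3 libraries of empty vector cells (the control group), all grown in RPMI1640 with 10% FBS. The IL17D reading frame was carried by a lentiviral vector with a human PGK promoter and a GFP read from the same transcript. Whether each line was a clone or a pool was not given in the sources used here, and nothing in them says that the 3 libraries of a group came from separate cultures, so p-values measure the spread between these libraries, which may be technical.

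The ribosome is built from a large and a small subunit, each a core of ribosomal RNA covered by proteins that are made in the cytoplasm, imported into the nucleus and assembled there. The mRNAs of these proteins begin with a C followed by a run of pyrimidines, the 5′ terminal oligopyrimidine (TOP) tract, through which LARP1 and the mTOR pathway set their translation together. Some ribosomal proteins have roles off the ribosome, such as RPL5, RPL11 and RPL23, which can bind MDM2, the ligase that degrades p53.

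Library totals ranged from 14319398 to 16521021 counts. IL17D itself had 24, 18 and 34 counts in the control libraries and 31274, 32155 and 26772 counts in the IL17D libraries, in the direction of the labels. The epithelial keratins KRT8 and KRT18 averaged 7650 and 3590 CPM (counts scaled to a common library size) in the control group, CDKN2A, which A549 cells are known to lack, had 0 counts in every library, and of the 4 leukocyte markers PTPRC and CD3E had 0 counts too, while CD14 had 8 to 20 and CD79A 1 to 9 counts in a library. The epithelial markers EPCAM and KRT19 averaged only 1.05 and 0.37 CPM in the control group. CDH1, another epithelial marker, averaged 43.4 CPM there and 35.7 CPM in the IL17D group (adjusted p = 0.0306 by edgeR's quasi-likelihood test). SFTPC, the surfactant gene of alveolar type 2 cells, had at most 3 counts in a library. Of the stroma and endothelium markers, COL1A1 averaged 23.3 CPM in the control group, while COL3A1, VWF and PECAM1 averaged 0.156, 0.0852 and 0 CPM.

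Of the 91 members, 85 passed the filter on low counts, 51 of the large subunit and 34 of the small subunit. The 77 core genes, which encode the standard proteins of the human ribosome, were all among them. The 6 that did not pass were RPL3L and RPL10L, which are tissue-restricted copies of RPL3 and RPL10, the readthrough genes RPL17-C18orf32, RPL36A-HNRNPH2 and RPS10-NUDT3, and RPS4Y2. RPS19BP1 met the naming rule but encodes a protein that binds RPS19, not a protein of the ribosome. FAU, whose product is cut into a ribosomal protein and a ubiquitin-like protein, and RACK1 lie outside the rule and are given apart.

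The sequence around the transcription start is shown first because the TOP tract is what these genes share and the naming rule did not use it. Windows of 10 bases before and 20 bases from the RefSeq start on (GRCh38.p14) were searched on the gene's own strand for a C within 3 bases of the start followed by at least 4 bases that were each C or T. The tract was present in 52 of the 62 core members with a RefSeq start in the table (83.9%), in 32 of 38 of the large subunit and 20 of 24 of the small subunit, against 16.0% of 27305 genes. Of the 10 other members with a start, 3 had it, and of 69 mitochondrial ribosomal protein genes, whose ribosomes are a separate kind, 9 had it (13.0%). Where RefSeq listed several starts, any of them could count. The windows below belong to 10 of the members described next, with the tract in capitals, and the last 4 set a core gene beside its copy.
RPS28, chr19:8321486-8321515, plus strand: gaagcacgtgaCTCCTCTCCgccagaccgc
RPL37A, chr2:216498834-216498863, plus strand: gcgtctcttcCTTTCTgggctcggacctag
RPL38, chr17:74203668-74203697, plus strand: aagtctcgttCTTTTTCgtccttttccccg
RPS16, chr19:39435930-39435959, minus strand: ccctagctttCCTTTTCCggttgcggcgcc
RPS29, chr14:49598691-49598720, minus strand: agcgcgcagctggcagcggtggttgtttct
RPL9, chr4:39458903-39458932, minus strand: taatgacgacagacgttctttctttgctgc
RPL36A, chrX:101391001-101391030, plus strand: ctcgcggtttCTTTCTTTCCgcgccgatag
RPL36AL, chr14:49620607-49620636, minus strand: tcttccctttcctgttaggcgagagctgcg
RPS27, chr1:153990752-153990781, plus strand: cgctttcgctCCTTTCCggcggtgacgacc
RPS27L, chr15:63157458-63157487, minus strand: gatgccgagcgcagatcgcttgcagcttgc

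In RPL36A and RPS27 the tract began at the listed start, and for their copies RPL36AL and RPS27L no tract began within 3 bases of the listed start. RPL36AL had a C followed by 11 pyrimidines that began 9 bases before the start and ran across it, and RPL9 had a C followed by 7 pyrimidines that lay 7 bases past the listed start, both outside the limit of the search. The windows of RPS29 and RPS27L held no such run, which says only that the letters are not in these windows.

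Ribosomal protein mRNAs were abundant in both groups. All members together took 4.74, 4.61 and 4.61% of the counts in the control libraries and 4.69, 4.62 and 4.78% in the IL17D libraries, so that the groups overlapped. The large subunit members accounted for 2.87% ± 0.0512 (SD, n = 3) in the control group and 2.89% ± 0.0533 in the IL17D group, and the small subunit members for 1.79% ± 0.0271 and 1.81% ± 0.0276. These are shares of the RNA sequenced, so they cannot show the amount of RNA per cell.

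Per kilobase of mRNA, the level of the 77 core genes had a median of 742 CPM per kb over all libraries, 717 in the large subunit and 825 in the small subunit. The upper end held RPLP1 with 2710 CPM per kb, RPS19 with 2280, RPLP0 with 1900, RPS16 with 1890, RPS2 with 1830 and RPL8 with 1620. RPLP0 and RPLP1 are stalk proteins that recruit the translation factors, RPS19 is needed for maturation of the small subunit and is the gene most often mutated in Diamond-Blackfan anemia, and RPL8 lies in the large subunit. Among those at the low end were RPS10 with 3.22 CPM per kb, RPL36A with 12.0, RPL17 with 12.1, RPL26 with 91.8 and RPS15A with 97.7. All 77 proteins are parts of the same particle, yet the levels spanned from 3.22 to 2710 CPM per kb.

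The order depends on the length that is used. With the length given in the table, which joins all annotated exons, RPLP1 was the 13th and RPS19 the 18th of 77, while RPS10, RPL36A and RPL17 kept the ranks 77, 76 and 75.

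Several of the lowest genes share sequence with others in the annotation. For RPS10, 39.4% of the exon bases lay within exons of genes on the same strand, RPS10-NUDT3 before all, and for RPL17 the value was 32.7%, with RPL17-C18orf32. RPL36A was overlapped over 8.4% by RPL36A-HNRNPH2. Of the RPS10 counts and those of the 11 pseudogenes named after it, 76.5% lay in the pseudogenes, and for RPL9 they held about as many as the gene itself, 27844 and 27874. For RPS28 and RPL39 the pseudogenes held 27.8% and 23.6%. RPS2, at the upper end, had 25.6% of its exon bases overlapped on the same strand and 12.8% of the counts in pseudogenes. For RPL26 both values were 14.3%. Over the 77 core genes the level per kb and the overlap on the same strand had a Spearman rho of -0.16, and the level and the share of 31-base stretches found in other genes had a rho of 0.016. These are descriptions across genes, which are not independent replicates. How the counts of shared stretches were assigned was not given in the sources used here. The levels of RPS10, RPL17, RPL36A, RPL9, RPS28, RPL39, RPS2 and RPL26 are therefore uncertain, and those of other members with shared sequence may be too.

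**Figure D1:**
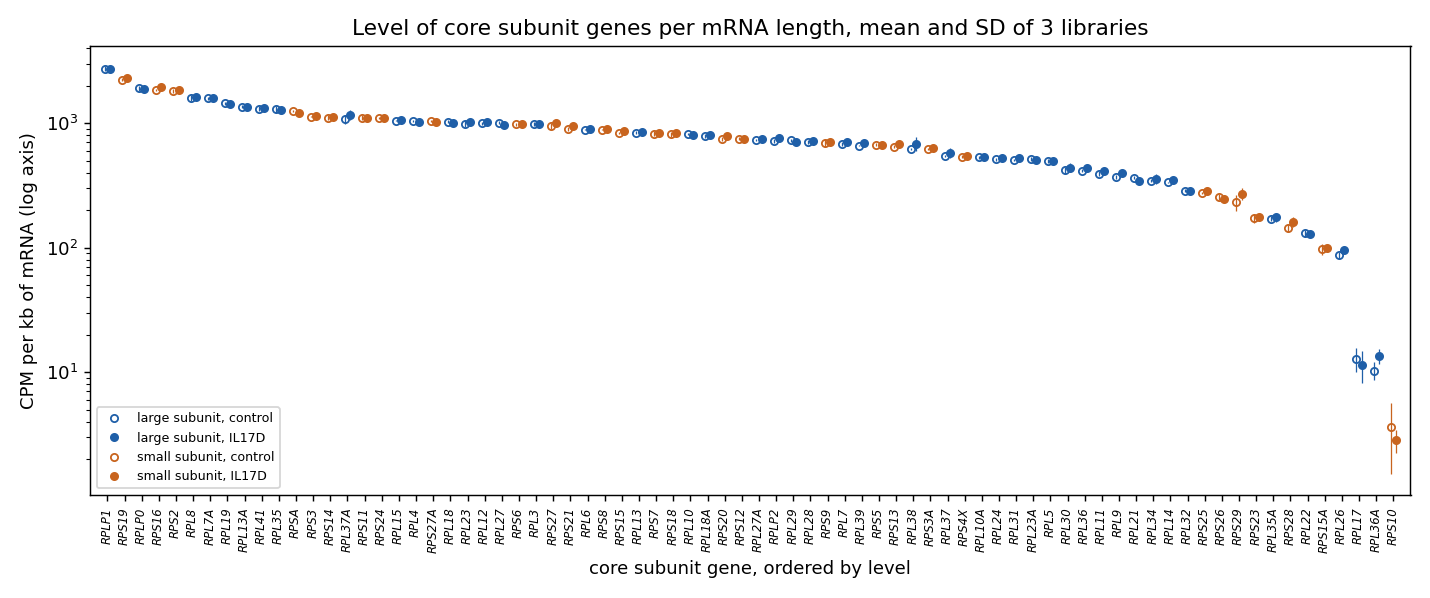
Level of 76 of the 77 core ribosomal protein genes in CPM per kb of mRNA on a log axis, ordered by the level over all libraries, with open points for the control group and filled points for the IL17D group (mean, bars the SD of 3 libraries), large subunit in blue and small subunit in orange. The levels fall from 2710 for RPLP1 to 3.22 for RPS10, and at nearly every gene the points of the groups lie close together compared with the range between genes.

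The comparison of IL17D with control asked whether expression of the cytokine came with another level of the ribosomal protein mRNAs. No large subunit member and no small subunit member was called at an adjusted p under 0.05 (edgeR's quasi-likelihood test, Benjamini-Hochberg over 15754 genes), where 0.673% of all tested genes were called higher and 0.908% lower. DESeq2's Wald test and limma voom on the same genes called 0 members too. At an unadjusted p under 0.05 there were 12 members, 7 of 51 in the large subunit and 5 of 34 in the small subunit, all with the higher estimate in IL17D cells, against 5.59% of all genes higher and 5.99% lower. DESeq2 gave 6 such members and voom 15. The count was 4 without IL17D replicate 3 and lay between 11 and 17 when any other single library was left out, and with a correction for GC content and length it was 19, 16 of them higher and 3 lower. Shares of all genes were counted for the main edgeR test only, so none stands beside these other counts. Among the 4329 genes over 50 CPM that are no members, 9.47% were higher and 8.27% lower at an unadjusted p under 0.05, against 14.1% and 0 of the members.

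The estimates were small. The log2 fold change (IL17D minus control) had a median of 0.021 over the large subunit members and 0.014 over the small subunit members, beside -0.0004 over all tested genes and 0.0046 over the other genes above 50 CPM. Of the 85 members, 57 had a positive and 28 a negative estimate. Positive estimates were found for 7858 of all 15754 tested genes and for 2292 of the 4329 other genes above 50 CPM. The 95% interval lay within ±0.2 for 74 members (87.1%), which was so for 31.4% of all tested genes and 83.1% of the other genes above 50 CPM. Among the 11 members with a wider or more distant interval were RPL17, RPL26, RPL26L1, RPL36A, RPL37A, RPL38, RPL39L, RPS10, RPS28 and RPS29, so for these a difference over 0.2 lay within the interval. Without IL17D replicate 3 the medians were 0.0075 and 0.0045, and without control replicate 1 they were 0.031 and 0.038.

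**Figure D2:**
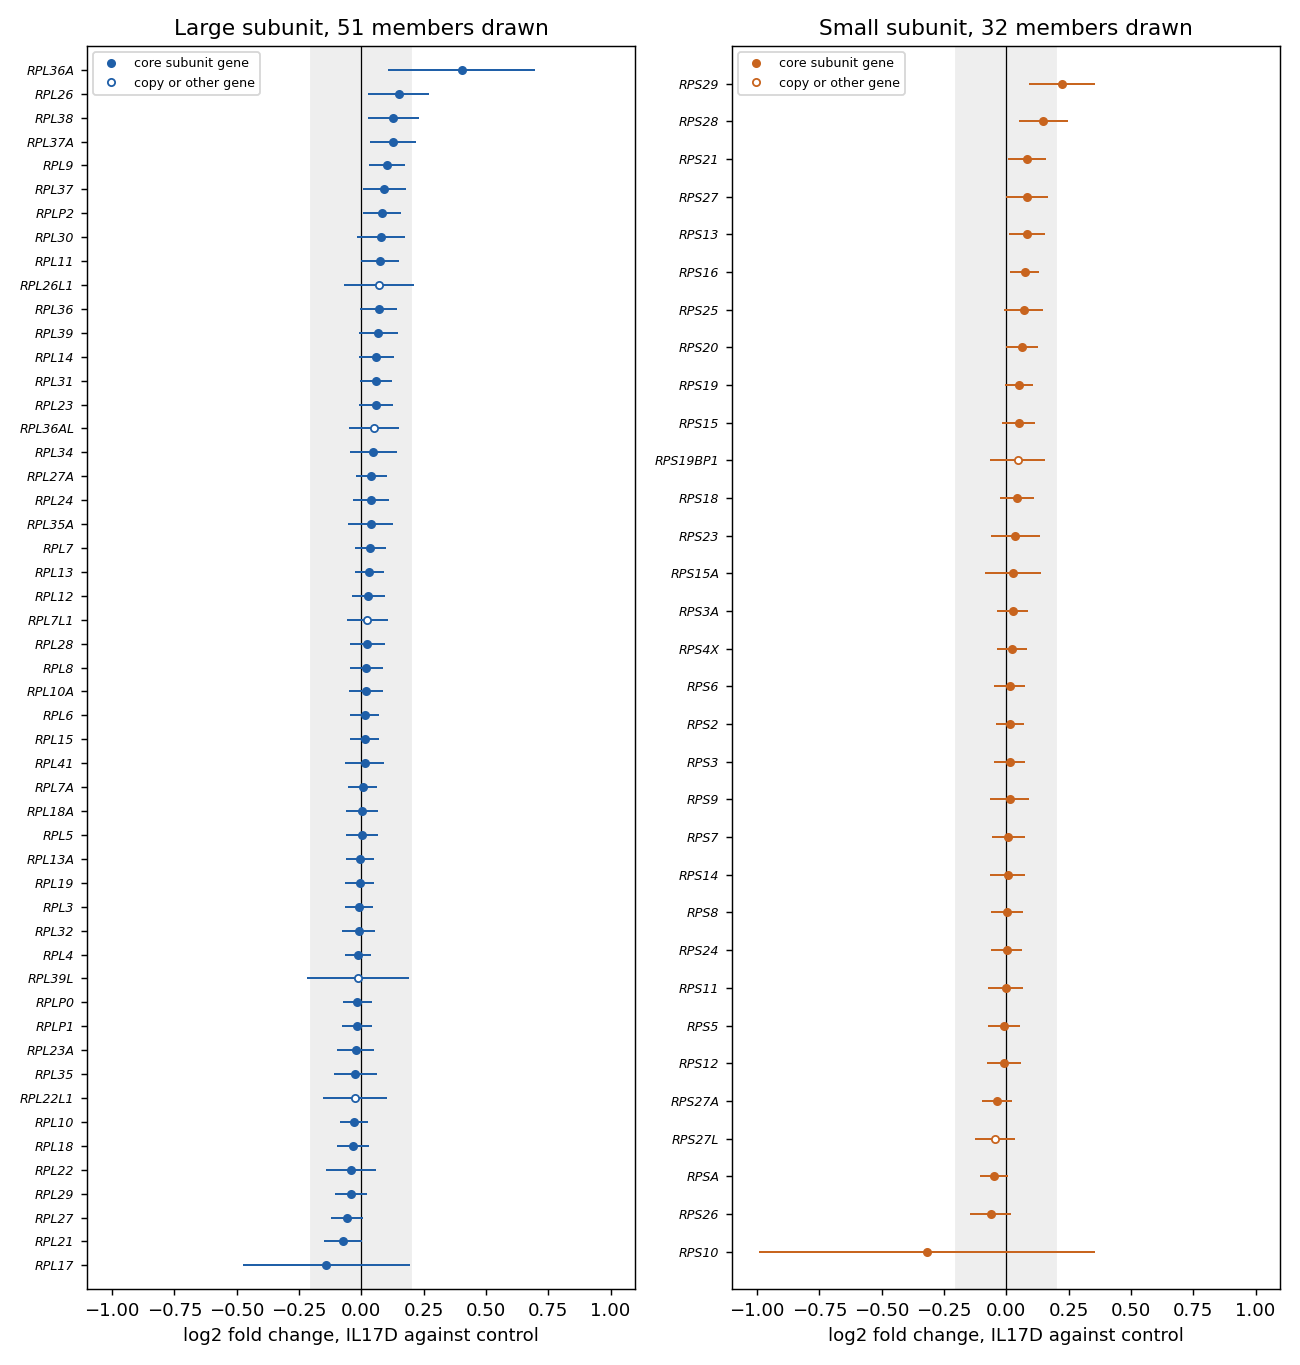
Log2 fold change of IL17D against control for 51 large subunit members (left) and 32 of the 34 tested small subunit members (right), with 95% intervals from the quasi-likelihood fit, filled points for core genes and open points for copies and other genes. The gray band marks ±0.2, which holds the whole interval of 74 of the 85 tested members, and the widest intervals belong to RPS10, RPL17 and RPL36A, which had few counts.

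RPS29, a small zinc-binding protein of the small subunit head, had the smallest p of all members. Its levels were 146.9, 138.7 and 183.2 CPM in the control libraries and 159.8, 196.6 and 191.2 CPM in the IL17D libraries. Control replicate 3 was higher than IL17D replicate 1, so the groups overlapped. The log2 fold change was 0.22 ± 0.065 (SE, n = 3 per group), with a 95% interval from 0.090 to 0.36, and the adjusted p of edgeR's quasi-likelihood test was 0.0829. The call turned on single libraries and on the settings of the test. The adjusted p by edgeR was 3.5e-05 once control replicate 3 was left out and 0.00579 once IL17D replicate 1 was. With all 6 libraries it was 7.2e-05 without the filter on low counts and 0.000984 with a term for the replicate number. Over 17 alternative settings it lay between 1.37e-05 and 0.854.

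RPS28, another small protein of the small subunit, near the mRNA exit, had 189.2, 180.6 and 207.2 CPM in the control libraries and 192.3, 220.1 and 228.0 CPM in the IL17D libraries. Here too control replicate 3 lay above IL17D replicate 1. Its log2 fold change was 0.15 ± 0.049 with an adjusted p of 0.147 (edgeR), which became 0.0128 when control replicate 3 was left out and 0.0129 when IL17D replicate 1 was, with limits of 0.00464 and 0.786 over the settings. The estimate was 0.108 when the counts of the pseudogenes named after RPS28 were added.

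RPL37A, a zinc-binding protein of the large subunit, showed the same arrangement of libraries, with 537.9, 543.6 and 624.3 CPM in the control group and 558.8, 641.7 and 663.4 CPM in the IL17D group. Its log2 fold change was 0.13 ± 0.046 and its adjusted p 0.211 (edgeR), against 0.00307 with control replicate 3 left out and 0.0129 with IL17D replicate 1 left out (limits over the settings 0.00297 and 0.915). In control replicate 3 and in IL17D replicates 2 and 3 all these 3 genes were higher than in the other libraries.

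RPL38, a large subunit protein known for its part in the translation of Hox mRNAs in the mouse, was high in 1 library. It had 264.7, 273.6 and 266.2 CPM in the control group and 277.3, 266.3 and 337.3 CPM in the IL17D group, the last in IL17D replicate 3. The log2 fold change of 0.13 ± 0.050 (adjusted p = 0.269 by edgeR) was 0.021 without IL17D replicate 3, and it was 0.20 with an adjusted p of 0.0261 without IL17D replicate 2, with adjusted p-values from 0.0261 to 0.94 over the settings.

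RPL9 had 285.0, 276.1 and 296.6 CPM in the control libraries and 296.4, 312.1 and 313.3 CPM in the IL17D libraries, an overlap of 0.2 CPM. Its log2 fold change of 0.10 ± 0.036 (adjusted p = 0.192 by edgeR) was 0.049 when the counts of the pseudogenes named after it were added. RPL36A had the largest estimate of all members, 0.40 ± 0.146 with a 95% interval from 0.11 to 0.70, at a low level of 6.277, 6.637 and 8.456 CPM in the control group and 10.82, 9.123 and 8.269 CPM in the IL17D group. Control replicate 3 was higher than IL17D replicate 3, and the adjusted p was 0.213 (edgeR).

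RPS16 and RPS13, both of the small subunit, had smaller estimates. RPS16 was measured at 1008, 1013 and 1046 CPM in the control group and 1076, 1038 and 1112 CPM in the IL17D group, and RPS13 at 314.6, 310.0 and 327.7 CPM against 324.3, 335.5 and 348.4 CPM. Their log2 fold changes were 0.073 ± 0.029 and 0.082 ± 0.035, with adjusted p-values of 0.294 and 0.351 (edgeR), and in both genes control replicate 3 lay within the range of the IL17D group. The remaining members with an unadjusted p under 0.05 were RPL26, RPS21, RPL37 and RPLP2, with log2 fold changes of 0.15, 0.084, 0.093 and 0.083.

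**Figure D3:**
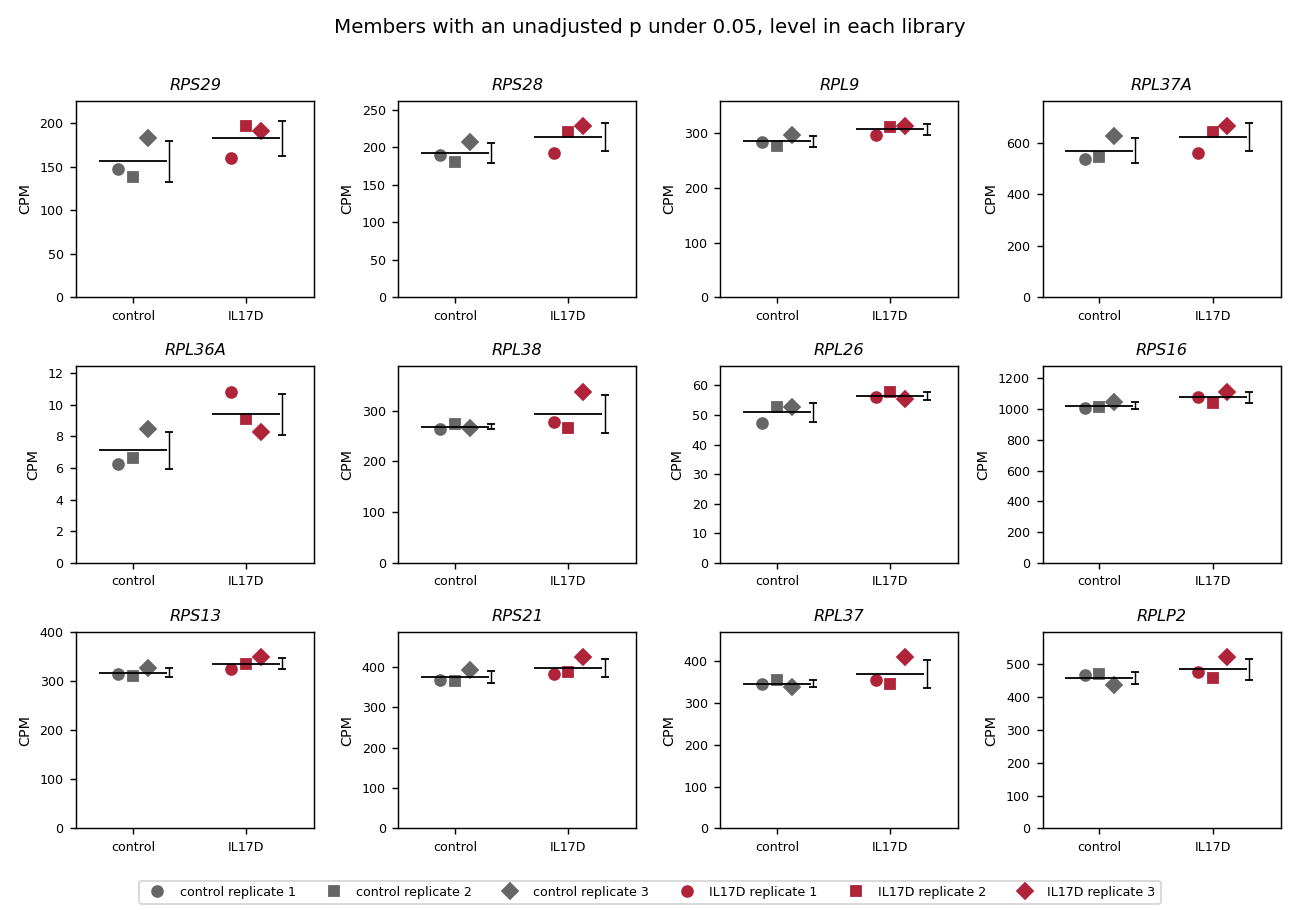
Level in CPM of the 12 members with an unadjusted p under 0.05 in each library (circle, square and diamond for replicates 1, 2 and 3), with the mean as a line and the SD of 3 libraries as a bar. In RPS29, RPS28 and RPL37A the diamond of control replicate 3 lies above the circle of IL17D replicate 1, and in RPL38 and RPL37 only IL17D replicate 3 stands above the control libraries by a wide margin.

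The 3 libraries of a group did not overlap with those of the other in 7 members. RPL26, RPL36, RPL14, RPL31 and RPS19 were higher in every IL17D library, against 7.48% of all genes, and RPL27 and RPSA were lower, against 8.31% of all genes. The shares of the 85 members, 5 and 2 genes, were thus not above those of all genes. RPL26 had 47.2, 52.75 and 52.85 CPM in the control group and 55.93, 57.84 and 55.57 CPM in the IL17D group, and RPS19 had 1188, 1148 and 1192 CPM against 1216, 1204 and 1235 CPM. RPSA, which is also known as a laminin receptor, had 1325, 1284 and 1272 CPM against 1254, 1250 and 1248 CPM. Their adjusted p-values were 0.294, 0.495 and 0.51 (edgeR).

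Of the proteins that bind MDM2, RPL5 averaged 508.5 ± 17.2 CPM in the control group and 509.6 ± 9.11 CPM in the IL17D group, with a 95% interval of the log2 fold change from -0.063 to 0.069. RPL11 had 355.1, 351.8 and 329.2 CPM against 352.2, 351.2 and 388.2 CPM, an estimate of 0.075 with an interval from -0.003 to 0.15. RPL23 had an estimate of 0.058 with an interval from -0.011 to 0.13. None of the 3 passed the test.

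Among the stalk proteins, RPLP0 and RPLP1 had estimates of -0.016 (interval -0.073 to 0.042) and -0.018 (interval -0.079 to 0.044). RPLP2, the other acidic stalk protein, had 467.2, 470.4 and 437.1 CPM in the control group and 477.3, 458.1 and 521.1 CPM in the IL17D group, and its estimate of 0.083 had an adjusted p of 0.379 (edgeR). RPL10, which joins the large subunit late and completes its active center, had an estimate of -0.030 with an interval from -0.087 to 0.027.

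In the small subunit, RPS6, whose protein is the classic target of S6 kinase, had 903.5, 853.5 and 867.9 CPM against 863.8, 867.7 and 920.9 CPM and an estimate of 0.015 (interval -0.048 to 0.077). RPS3, which lies at the mRNA entry, had an estimate of 0.013 (interval -0.048 to 0.073). RPS26, near the mRNA exit, had an estimate of -0.063 (interval -0.15 to 0.020). The intervals of these 3 genes lay within ±0.2 on the log2 scale, while for RPS10 the interval ran from -0.99 to 0.36 and for RPL17 from -0.48 to 0.19.

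The 6 pairs of a core gene and its copy were compared by the share of the copy in the summed level of the pair, in CPM per kb of mRNA. RPL7L1 gave 5.98% ± 0.129 (SD, n = 3) of its pair with RPL7 in the control group and 5.93% ± 0.171 in the IL17D group, and RPL39L gave 3.32% ± 0.33 and 3.14% ± 0.119 beside RPL39. RPL22L1 held 44.0% ± 2.67 and 44.2% ± 0.759 beside RPL22, and RPL26L1 held 37.8% ± 0.45 and 36.6% ± 1.21 beside RPL26. For RPL36AL the shares were 92.9% ± 1.23 and 91.1% ± 1.43. In these counts the copy, not the gene the pair is named for, had most of the level per kb. The levels of RPL36A and RPL39 are uncertain, as stated above, and so are the shares of their pairs. The 31-base stretches found in other genes made up 65.8% for RPL26, 69.0% for RPL26L1, 66.9% for RPL7 and 70.8% for RPS27. The shares of those pairs carry the same limit.

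RPS27L, a p53 target in other cells, took 20.8, 21.0 and 19.9% of its pair with RPS27 in the control libraries and 19.2% ± 0.775 (SD, n = 3) in the IL17D group. The groups overlapped, since IL17D replicate 1 lay just above control replicate 3, while IL17D replicates 2 and 3, with 19.0 and 18.5%, lay below all control libraries. With 3 libraries a group an exact permutation test of such a share cannot give a p below 0.10, and none was run. The fold changes of the copies themselves lay between -0.047 for RPS27L and 0.071 for RPL26L1 and none passed the test.

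Coding length was looked at because many of the members with small p-values are short. Of the 12 members with an unadjusted p under 0.05, 6 had a coding length under 300 bases. The 11 members of that size had 9 positive estimates and a median of 0.084 on the log2 scale, while the medians were 0.043 for the 18 members of 300 to 399 bases, 0.019 for 32 members of 400 to 599 bases and 0.013 for 24 members of 600 bases or more. The 75 other genes over 50 CPM with under 300 coding bases had a median of 0.001. Across the 85 members the fold change and the coding length had a Spearman rho of -0.37. This measure and its bins were chosen after the values had been seen, and with the length of the middle-length mRNA the rho was -0.22 and with that of the principal transcript -0.11, so the relation was weaker with both transcript lengths.

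The pattern was weaker without 1 library. Without IL17D replicate 3 the median of the members under 300 bases was 0.029 and the rho was -0.21, and within that library the deviation from each member's mean and the coding length had a rho of -0.43, against 0.35 in control replicate 1 and between -0.024 and 0.096 in the other 4. The highest of the 6 values was in IL17D replicate 3 for 9 of the 12 members with an unadjusted p under 0.05 and for 37 of all 85 tested members. With coding length, the genes over 50 CPM that are no members had a rho of -0.23 in control replicate 1, opposite in sign to the members. It was 0.18 in control replicate 3 and -0.12 in IL17D replicate 3. Libraries also differed in how the deviations of these other genes followed their GC content. That rho was -0.41 in control replicate 3 and -0.35 in IL17D replicate 2, with values from 0.047 to 0.32 in the others. For the members it was -0.061 in control replicate 3 and -0.17 in IL17D replicate 2. The part of these library differences in the members' estimates was not tested.

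**Figure D4:**
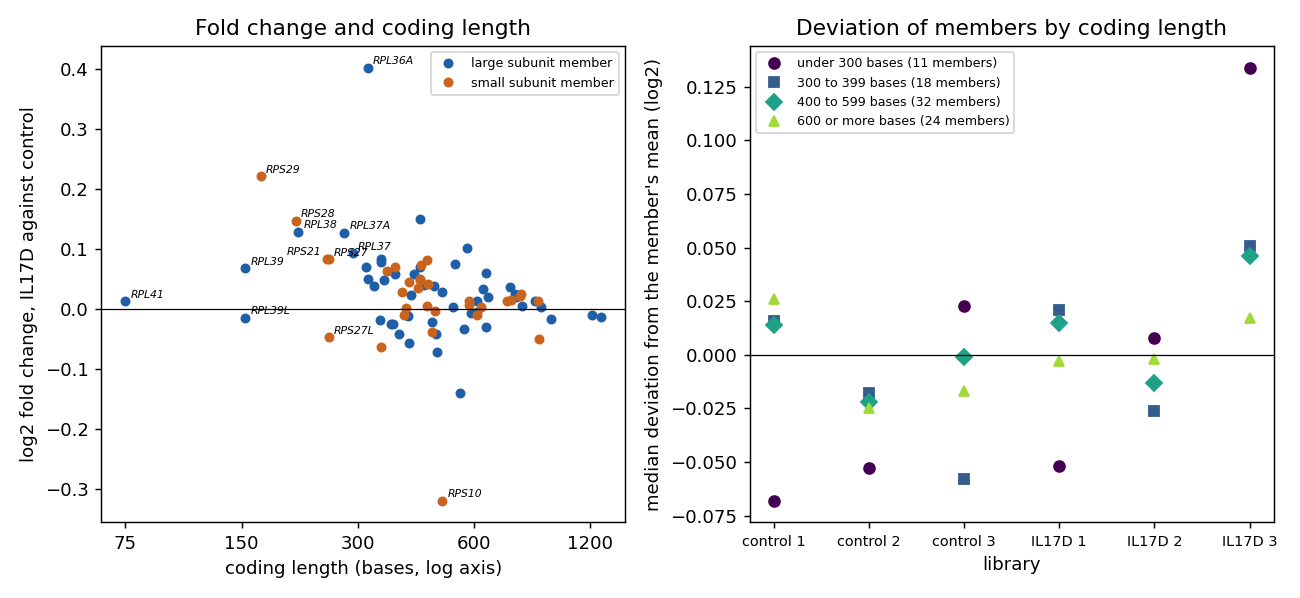
Left, log2 fold change of IL17D against control and coding length in bases (log axis) for 83 of the 85 tested members, large subunit in blue and small subunit in orange, with names for members under 300 bases or over 0.2 in size. Right, median deviation from each member's mean (log2) in each library for 4 classes of coding length; members under 300 bases reach 0.134 in IL17D replicate 3 and -0.068 in control replicate 1.

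The genes that stand for ribosomal proteins outside the naming rule gave the same picture of small estimates. FAU had an estimate of 0.019 (interval -0.058 to 0.096) and RACK1, a scaffold on the small subunit head, of -0.009 (interval -0.069 to 0.051). Of the 1144 pseudogenes named after members, 78 passed the filter on low counts and none was called by edgeR, with 5 higher and 1 lower at an unadjusted p under 0.05. Of all tested genes, 5.59% were higher and 5.99% lower at that threshold.

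Other lists of the pathway were counted in the same fit, in which 11.6% of all tested genes had an unadjusted p under 0.05. None of the 23 tested TOP genes of translation factors and their partners was called by edgeR, with 1 (4.35%) at an unadjusted p under 0.05. That gene was EEF1D, a subunit of the elongation factor 1 exchange complex, with 204.2, 199.7 and 191.3 CPM in the control group and 212.2, 210.9 and 216.5 CPM in the IL17D group and an adjusted p of 0.225. EIF3H, a subunit of initiation factor 3, had an estimate of 0.075 (adjusted p = 0.487). Of the 24 genes on this list, 15 had a RefSeq start to search, and the tract was present in 14 of them. Of 9 snoRNA host genes listed as TOP genes, which were not searched for the tract here, none was called. SNHG1 alone had an unadjusted p under 0.05 (11.1% of the list), with an estimate of 0.097, followed by SNHG6 with 0.11.

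Among 18 genes from mTOR to S6 kinase and LARP1, none was called and 2 had an unadjusted p under 0.05. That is 11.1% of the list, not above the 11.6% of all tested genes. PDCD4, a translation inhibitor that S6 kinase marks for degradation, had 26.28, 21.91 and 24.93 CPM in the control group and 19.39, 21.29 and 20.95 CPM in the IL17D group, an estimate of -0.25 ± 0.090 with an adjusted p of 0.207 (edgeR). RPTOR, the scaffold of mTOR complex 1, had an estimate of 0.11 with an adjusted p of 0.294. None of 8 chaperones and escorts of single ribosomal proteins was called or had an unadjusted p under 0.05, the smallest being those of HEATR3, which serves RPL5, with an estimate of -0.14, and TSR2, which serves RPS26, with 0.15.

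The mitochondrial ribosomal protein genes, whose proteins build the ribosome inside mitochondria, served as a comparison of like function. Of the 77 tested, none was called by edgeR, and the median log2 fold change was 0.016. At an unadjusted p under 0.05, 1 was higher and 2 were lower (3.9% together, against 11.6% of all tested genes). MRPS10 had 60.43, 52.2 and 52.48 CPM in the control group and 48.21, 49.14 and 44.85 CPM in the IL17D group, with an estimate of -0.22 and an adjusted p of 0.095. MRPL23 had an estimate of -0.35 with an adjusted p of 0.196. DESeq2's Wald test and limma voom also called 0 genes of the mitochondrial list, the pseudogenes and each of the other lists.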

How the data were processed

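RNA-seq libraries of A549 cells were analysed from the table of raw read counts per gene that the authors deposited, 3 libraries with empty vector and 3 with IL17D. The submitters' processing notes name Bowtie2 and hg38; the counting tool and its handling of strand and of reads with several matches were not given in the sources used here. Positions matched GENCODE 29 for 58724 of 58735 genes. Low counts were removed with filterByExpr, libraries were scaled by TMM, and IL17D was tested against control without covariates by the quasi-likelihood test of edgeR 4.0.16 in R 4.3.3, with Benjamini-Hochberg adjustment over 15754 genes. DESeq2 1.42.0 and limma 3.58.1 (voom) were alternatives. The test was run on simulated counts, drawn with a common dispersion for all genes and without the library trends in GC content and length. That run does not show how the test performs on the members. CPM used TMM-scaled totals, and log2 values for the deviation of single libraries used a pseudocount of 0.1 CPM. Levels per kb used the annotated mRNA of middle length, coding length that of the principal transcript. Intervals cover 95% and come from the quasi-likelihood fit. Depth was 14319398 to 16521021 counts.

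The members and gene lists were chosen with earlier results of these data known. Genes were named by these rules: IL17D; per subunit the members with an adjusted p under 0.05, filled up to 4 by smallest p; the 3 highest and 3 lowest core members by level per kb in each subunit; members with known roles (MDM2 binding, stalk, RPL10, RPS3, RPS6, RPS19, RPS26, RPSA); 6 pairs of copies; the 2 smallest p-values of each other list; FAU and RACK1. Some genes that these rules name are not reported here. RPS21, RPL37, RPL27, RPL31, RPL14 and RPL36 were named after their values were seen. The corrections for GC content and length were added after seeing the data. Sequences are from RefSeq (GRCh38.p14).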

Additional observations from a re-analysis of the deposited data

How the results depend on the processing

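Of the members, 4 (RPS29, RPS28, RPL37A and RPL38) were called at an adjusted p under 0.05 in at least 1 of 17 alternative settings, and their direction was the same in all. The large and small subunit counts, 0 each, were 1 and 2 without a filter on low counts, 1 and 2 with the replicate block (a term for the replicate number) and 2 and 2 with a GC and length correction and the replicate block, and they ran from 0 to 1 and from 0 to 2 when 1 library was left out. The deviations of same-numbered libraries over all tested genes had correlations of 0.0073, -0.0088 and -0.014, and the numbers were not taken as pairs in the main test. The median level of these genes was 19.7 CPM, where counting noise can hide shared deviations, so the correlations cannot exclude pairing. The mitochondrial list had 1 call without the filter, 1 with the replicate block, 2 with the correction and replicate block, and 0 to 2 without 1 library. Over all genes, 249 calls of 15754 tested became 295 of 32373 without the filter and 272 of 15754 with the replicate block. They became 417 of 15747 with the correction and replicate block. When 1 library was left out they ran from 145 of 16174 without IL17D replicate 3 to 267 of 16189 without control replicate 3. DESeq2, voom, other scalings, a minimum of 10 counts in every library, the correction without the block and adding pseudogenes called 0 members. Scaling moved the median of all genes by at most 0.003 on the log2 scale. The estimates of 13 named members changed sign when 1 library was left out, RPS10 (-0.319 with all libraries) and RPL17 (-0.14) among them, in ranges of -0.056 to 0.009 for RPLP1, -0.053 to 0.004 for RPLP0, -0.023 to 0.057 for RPL8, -0.389 to 0.035 for RPL17, -0.012 to 0.029 for RPS2, -0.022 to 0.117 for RPS15A, -0.673 to 0.188 for RPS10, -0.023 to 0.023 for RPL5, -0.02 to 0.033 for RPS3, -0.014 to 0.04 for RPS6, -0.074 to 0.013 for RPL22, -0.086 to 0.018 for RPL22L1 and -0.088 to 0.061 for RPL39L. RPL5 also changed sign with library totals (-5.2e-05). The cause of these changes was not tested. Few counts limit RPS10, RPL17 and RPL36A.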
